A study of Mus musculus with 6 samples.

Results

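Procr, Trpa1, Cd109, Cadm1, Batf3, Tceal6, Snhg11, Fchsd2 and Myh10 are 9 of the 19069 genes listed on the plates of this experiment, and they were picked because their levels differed between the genotypes in these same libraries. The genotype values below therefore describe the choice and carry no test. Tests are given for comparisons that did not choose the genes, namely between cell classes and between fibroblast subtypes. Each gene was followed to the cells that held it, to the mice and wells that carried its transcripts, and to the wells in which the difference between genotypes was or was not seen.

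The cells came from colon tumors that were induced with the carcinogen azoxymethane and the colitis-inducing agent dextran sulfate sodium (AOM/DSS). Both genotypes were Zeb1 fl/fl, and FibΔZeb1 mice in addition carried the Col6a1Cre transgene, in which the promoter of a collagen VI gene drives Cre mainly in fibroblasts, whereas FibCtrl mice were negative for the transgene. According to the study's methods the mice were littermates of both sexes and of matched age. Live cells without EPCAM, CD45 and CD31, markers of epithelium, leukocytes and endothelium, were sorted singly into plates of 384 wells for SORT-seq, which tags each mRNA molecule with a molecular barcode near its 3′ end. There were 3 FibCtrl mice (1, 3 and 4) and 3 FibΔZeb1 mice (2, 5 and 6), numbered by their plate. Each mouse filled 1 plate, so that mouse and plate cannot be told apart. P-values between genotypes measure the spread between these mice. Those between cell classes or fibroblast subtypes measure the spread left after differences between mice are taken out.

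The 9 genes belong to no common pathway. Procr (endothelial protein C receptor), Trpa1 (a cation channel opened by irritants), Cd109 (a GPI-anchored protein that binds TGF-beta) and Cadm1 (an adhesion molecule of the immunoglobulin family) act at the cell surface. Batf3 is an AP-1 family transcription factor best known from dendritic cells, Tceal6 belongs to a family of small X-linked proteins resembling an elongation factor, Snhg11 is a host gene of small nucleolar RNA, Fchsd2 is an F-BAR protein of membrane trafficking, and Myh10 is the heavy chain of nonmuscle myosin IIB. Zeb1 itself encodes a zinc-finger factor that binds E-box sequences and mostly represses its targets. Colonic fibroblasts include telocytes, which lie beneath the epithelium and supply Wnt and BMP signals, and in tumors inflammatory fibroblasts (iCAFs).

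Of 2304 wells, 1233 had 100 to 6000 genes and under 10% mitochondrial transcripts and were kept, with 109 to 298 per mouse. Markers assigned 553 of them to fibroblasts, 437 to neutrophils, 95 to epithelium, 80 to pericytes, 23 to smooth muscle and 10 to glia. Neutrophils, which the CD45 sort should have removed, made up 9.29% to 84.2% of the kept wells of a mouse. Fibroblast wells numbered 174, 19 and 55 in FibCtrl mice 1, 3 and 4 and 168, 122 and 15 in FibΔZeb1 mice 2, 5 and 6, with 243377 to 2319977 transcripts per mouse in all and 7093 to 15773 in the median well. All 10 fibroblast markers were found in most of these wells in 5 mice, and 8 of 10 in mouse 4. Levels are given as CPM, the transcripts of a gene per 1000000 transcripts of the summed wells with spike-in RNA left out. Mice 3 and 6 had the fewest fibroblast transcripts in all, although their median fibroblast wells held 12581 and 15773. The shallowest median fibroblast well was that of mouse 5, at 7093. Over the kept wells Xist was at 208, 104 and 174 CPM in mice 1, 2 and 3, at 0.851 CPM in mouse 4 and at 0 in mice 5 and 6. Y-linked genes were listed in mice 4, 5 and 6, so that both sexes were present in each genotype, in unequal number. High Xist was seen in 2 FibCtrl mice and 1 FibΔZeb1 mouse, and Y-linked genes in 1 and 2. The part of sex in the genotype differences was not tested. The deposited data of mouse 6 carry the code of a sequencing run of their own.

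Zeb1, the deleted gene, was detected in the fibroblast wells of every mouse. Its level was 114, 107 and 95.8 CPM in FibCtrl mice 1, 3 and 4 and 59.5, 71.2 and 65.7 CPM in FibΔZeb1 mice 2, 5 and 6. All FibΔZeb1 mice were lower, and transcript remained in each of them. The fitted difference was -0.66 ± 0.21 (SE) on the log2 scale, a 1.58-fold decrease with an unadjusted p of 0.0140 and an adjusted p of 0.9996 (edgeR quasi-likelihood test with Benjamini-Hochberg adjustment). The counted 3′ end need not lie in the floxed part, so that this level does not measure how many cells had lost the gene.

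Procr was the most abundant of the 9 genes, with 848 transcripts in 174 of the 553 fibroblast wells. Its level in fibroblast wells was 157, 230.0 and 321 CPM in FibCtrl mice 1, 3 and 4 and 70.3, 53.4 and 86.3 CPM in FibΔZeb1 mice 2, 5 and 6. Every FibΔZeb1 mouse lay below every FibCtrl mouse, with means of 236 ± 82.3 and 70.0 ± 16.5 CPM (SD, n = 3 each) and a ratio of 3.37. The transcripts were spread widely, as 54, 8 and 32 FibCtrl wells and 43, 32 and 5 FibΔZeb1 wells held at least 1, and no mouse had more than 38.1% of them in 1 well.

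Trpa1 was rarer, with 79 transcripts in 37 fibroblast wells. FibCtrl mice had 15.5, 19.1 and 29.9 CPM and FibΔZeb1 mice 7.33, 1.98 and 8.22 CPM. The genotypes did not overlap, and the means of 21.5 ± 7.52 and 5.84 ± 3.38 CPM (SD, n = 3 each) gave a ratio of 3.68. These levels rested on few transcripts, since mouse 1 had 27 of its 33 in a single well, mouse 5 had 2 in all and mouse 6 had 2 in 1 well.

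Cd109 ran the other way. It was found at 26.7, 11.5 and 28.4 CPM in FibCtrl and at 45.7, 79.1 and 61.7 CPM in FibΔZeb1 mice, as means 22.2 ± 9.32 against 62.2 ± 16.7 CPM (SD, n = 3 each), or 2.80 times higher in FibΔZeb1. All FibΔZeb1 mice were above all FibCtrl mice. Of its 280 transcripts, mouse 3 had only 3 and mouse 6 had 15, of which 10 were in 1 well.

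Cadm1 overlapped between the genotypes. FibCtrl mice had 14.5, 72.8 and 27.0 CPM and FibΔZeb1 mice 6.03, 18.8 and 16.4 CPM. The high FibCtrl mean of 38.1 ± 30.7 CPM, against 13.8 ± 6.78 CPM (SD, n = 3 each), came from mouse 3, which had 19 transcripts in 6 of 19 wells, 10 of them in 1 well. Without mouse 1 the genotypes would no longer overlap.

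Batf3 was the scarcest member, with 62 transcripts in 34 fibroblast wells. It was listed at 15.0, 19.1 and 15.0 CPM in FibCtrl and at 4.74, 2.97 and 4.11 CPM in FibΔZeb1 mice. The groups did not overlap, with means of 16.4 ± 2.41 and 3.94 ± 0.900 CPM (SD, n = 3 each) and a ratio of 4.15. Single wells weighed heavily here: the 5 transcripts of mouse 3, the 3 of mouse 5 and the 1 of mouse 6 each came from 1 well.

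Tceal6 showed the largest ratio. FibCtrl mice had 4.21, 3.83 and 5.99 CPM and FibΔZeb1 mice 35.4, 13.8 and 74.0 CPM, or 4.68 ± 1.15 against 41.1 ± 30.5 CPM (SD, n = 3 each), 8.79 times higher in FibΔZeb1. No FibΔZeb1 mouse reached down to the FibCtrl range, but they differed widely among themselves. Mouse 2 carried most of the evidence, with 82 transcripts in 37 wells, whereas mouse 5 had 14 in 6 wells and the high value of mouse 6 came from 18 transcripts in 2 wells, 11 of them in 1. The FibCtrl mice had 9, 1 and 4 transcripts.

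Tceal6 has a near copy, Tceal3, and a short 3′ read can be assigned to either where they are identical. Their reference transcripts matched at 97.7% of 933 aligned bases, and over the last 500 bases of Tceal6 17 of 482 aligned bases differed, with identical runs of up to 138 bases. The window below is shown because it holds the densest differences by which a read can be told apart. It covers bases 432 to 403 counted from the 3′ end of the Tceal6 transcript (build GRCm38), 4 positions differ, and these are in capitals.
Tceal6: AcagatatgactagggctcGggaagagTtA
Tceal3: GcagatatgactagggctcAggaagagCtG
Tceal3 itself stood at 1.87, 7.66 and 7.48 CPM in FibCtrl and at 5.17, 4.94 and 0 CPM in FibΔZeb1 fibroblast wells, and the genotypes overlapped. The sum of both genes was 6.08, 11.5 and 13.5 CPM in FibCtrl and 40.5, 18.8 and 74.0 CPM in FibΔZeb1 mice, which again did not overlap. How many reads of either gene were assigned to the other was not tested.

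Snhg11 overlapped between the genotypes in fibroblast wells, with 27.1, 19.1 and 53.9 CPM in FibCtrl and 16.4, 20.8 and 28.8 CPM in FibΔZeb1 mice. Means were 33.4 ± 18.2 and 22.0 ± 6.28 CPM (SD, n = 3 each). In epithelial wells FibCtrl mice 1, 3 and 4 had 266, 440 and 199 CPM. FibΔZeb1 mice 2, 5 and 6 had 0, 9.32 and 80.5 CPM there, without overlap. Mice 1, 2 and 3 had only 5, 2 and 5 epithelial wells. All 15 transcripts of mouse 1 and 13 of the 15 of mouse 6 were in 1 well, and nothing is read from these values. A snoRNA gene, Gm25187, lies within Snhg11 on the same strand and shares 133 exon bases, so that reads of both could mix there.

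Fchsd2 was the member spread most evenly over wells, with 133 transcripts in 104 wells and at most 3 in any of them. Its level was 29.9, 26.8 and 26.9 CPM in FibCtrl and 12.5, 14.8 and 0 CPM in FibΔZeb1 mice. FibCtrl mice were nearly equal and above all FibΔZeb1 mice, with means of 27.9 ± 1.77 and 9.11 ± 7.97 CPM (SD, n = 3 each) and a ratio of 3.06. None of the 15 fibroblast wells of mouse 6 had a transcript, and at its depth a count of 0 allows up to 12.3 CPM.

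Myh10 was found in the most wells, 246. The level was 87.5, 130.2 and 98.8 CPM in FibCtrl and 73.3, 56.3 and 74.0 CPM in FibΔZeb1 mice, as means 105 ± 22.1 and 67.9 ± 9.99 CPM (SD, n = 3 each). The ranges were separate, although mice 1 and 6 lay close together, and the ratio was 1.55.

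**Figure D1:**
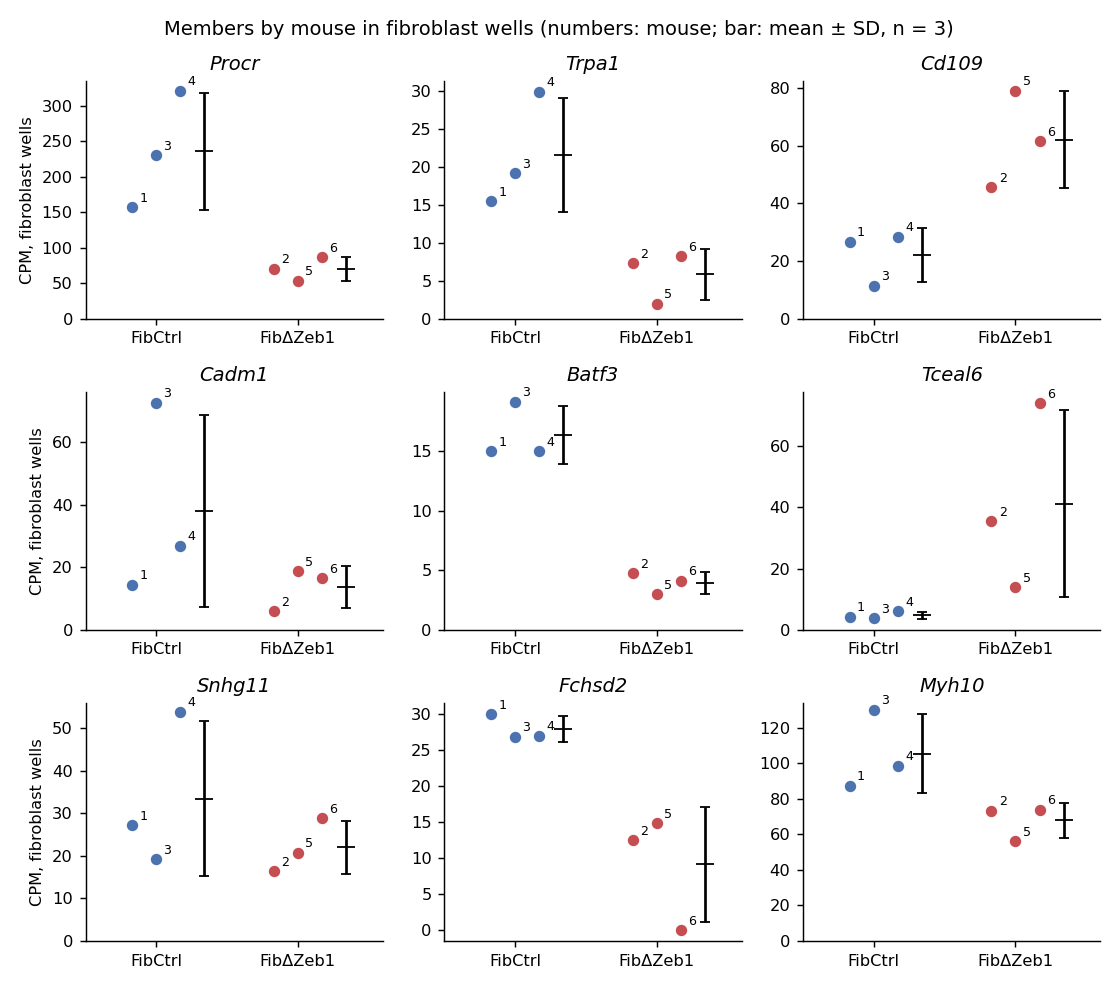
Level of each gene in the fibroblast wells (CPM, linear axis that includes 0) for the 3 FibCtrl and 3 FibΔZeb1 mice, each point labelled with its mouse number, with the mean ± SD as a bar. Procr, Trpa1, Batf3, Fchsd2 and Myh10 lie lower and Tceal6 and Cd109 higher in every FibΔZeb1 mouse, while Cadm1 and Snhg11 overlap.

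In fibroblast wells, 5 of the 9 genes were thus lower and 2 higher in all FibΔZeb1 mice without overlap. Among all 12413 genes with at least 10 transcripts in these wells, 3.54% were lower and 3.04% higher in this sense, and since the genes were chosen on this contrast nothing is read from the excess. The log2 ratios of the means ranged from -2.05 for Batf3 to 3.14 for Tceal6, against a median of -0.01 over all genes. Over all kept wells 6 of 9 did not overlap, beside 4.33% of 13972 genes, and Cd109 joined Cadm1 and Snhg11 among those that did. No gene of 8514 tested differed between genotypes in fibroblast wells at an adjusted p under 0.05 (0% called by edgeR), 130 or 1.53% did so at an unadjusted p under 0.05, and DESeq2 called 1 gene, Procr, a call that rests on the values that chose it and is no test of it. In a sum over wells, fewer cells with a transcript and less RNA per cell cannot be told apart.

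In 3 mice each, Tceal6, Batf3, Trpa1 and Cadm1 had at least 50% of their fibroblast transcripts in 1 well, Cd109 in 2 mice, Snhg11 in 1, and Procr, Fchsd2 and Myh10 in none. When the well with the most transcripts of the gene was left out in each mouse, Procr, Tceal6, Fchsd2 and Myh10 still did not overlap, 4 of the 9 genes, beside 5.74% of all genes, and Batf3, Cd109 and Trpa1 did. When every well counted equally, as the mean of the CPM of single wells, Procr, Batf3 and Fchsd2 did not overlap, 3 of 9 beside 7.35% of all genes, and Tceal6, Cd109, Trpa1 and Myh10 did. Both ways of weighting wells were applied to the contrast that chose the genes, and nothing is read from these counts.

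**Figure D2:**
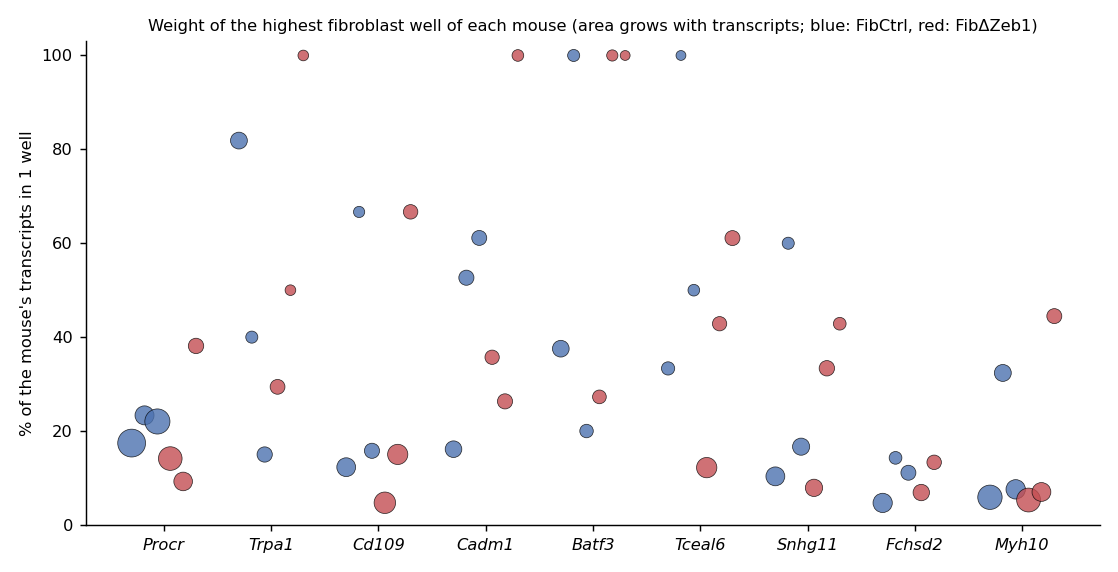
Share of a mouse's fibroblast transcripts of each gene that came from the single well with the most (%, 0 to 100), 1 circle per mouse, blue for FibCtrl and red for FibΔZeb1, with the area growing with the number of transcripts. Large circles of Procr, Myh10 and Fchsd2 sit low, whereas Trpa1, Cadm1, Batf3 and Tceal6 have small circles at 100%.

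Wells were also thinned to 1000 molecular barcodes each, so that depth was the same, leaving out shallower ones (1 to 14 per mouse, and 0 in mouse 6). Before thinning, Procr was detected in 31.0%, 42.1% and 58.2% of FibCtrl fibroblast wells and in 25.6%, 26.2% and 33.3% of FibΔZeb1 wells, which overlapped. After thinning the shares were 10.6%, 16.7% and 20.4% in FibCtrl and 3.23%, 5.17% and 6.67% in FibΔZeb1 mice, and no FibΔZeb1 mouse reached the FibCtrl range. Neutrophils, whose wells were not thinned, had a Procr transcript in 2 of 437 wells (0.458%) at a median depth of 1475 transcripts per well, against 11627 in fibroblast wells. Thinning left few wells with the other members, from 0 in mouse 6 for 6 of them to 15 in mouse 1 for Myh10. By this share Tceal6, Trpa1, Cadm1 and Fchsd2 were also free of overlap, on 0 to 6 wells per mouse, which makes 5 of 9 members beside 5.99% of all genes, and Batf3, Cd109, Snhg11 and Myh10 were not. Myh10 turned its direction, with 15 of 160, 1 of 18 and 2 of 54 wells in FibCtrl and 9 of 155, 8 of 116 and 3 of 15 in FibΔZeb1 mice, or a log2 ratio of the mean shares of 0.81.

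The question of which cells express the genes was then addressed over all mice. Fibroblast wells held 98.5% of all Tceal6 transcripts, 94.1% of Trpa1, 85.8% of Myh10, 78.7% of Procr, 76.1% of Cd109, 70.7% of Fchsd2, 67.4% of Batf3, 56.7% of Snhg11 and 48.4% of Cadm1. The rest fell into different classes. Pericytes held 23.9% of the Batf3, 16.5% of the Fchsd2, 15.5% of the Procr and 10.3% of the Cd109 transcripts, epithelial wells 35.4% of the Snhg11 and 24.4% of the Cadm1 transcripts, and the 10 glial wells 25.8% of the Cadm1 transcripts.

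Fibroblasts were compared with neutrophils, epithelium and pericytes by edgeR's quasi-likelihood test on sums per mouse and class, with the mouse as a block, sums of at least 5 wells and Benjamini-Hochberg adjustment over 8596 genes. Trpa1 and Fchsd2 did not pass the filter on low counts in this fit and were not tested. Compared with neutrophils, 5 of the 7 members tested were higher in fibroblasts, where 35.0% of all genes were. Myh10 was 3.18 ± 0.68 higher on the log2 scale (SE, adjusted p = 8.2e-05, higher in 6 of 6 mice), beside a median of 0.80 over all genes. The other 4 had 0 to 3 transcripts in neutrophil wells, and counting error bounds their ratios widely. Procr had 848 against 2 transcripts, a ratio of 47.6 with a 95% interval of 13.1 to 394 (adjusted p = 1.1e-06), and Cd109 280 against 3, a ratio of 10.5 with an interval of 3.55 to 51.1 (adjusted p = 0.0059). For Tceal6 the count was 128 against 1 (ratio 14.4, 2.53 to 572, adjusted p = 0.0208) and for Batf3 62 against 0, at least 2.32-fold higher (adjusted p = 0.0292). Tceal6 was above 0 in only 7 of the 26 sums of at least 5 wells. With 1 and 0 neutrophil transcripts, Tceal6 and Batf3 could not have been called lower in fibroblasts, and nothing is read from their calls or from the count of 5 of 7. Cadm1 and Snhg11 were not called (adjusted p = 0.0572 and 0.374). With mouse 6 left out 2 of 6 members tested were called, and Cd109 had an adjusted p of 0.0535, and with mouse 3 left out 3 of 6, while Tceal6 did not pass the filter in either case. With the filter of all mice kept, an alternative added after seeing the data, 4 of 7 were called in both cases, and without mouse 6 Cd109 was called (adjusted p = 0.0284) and Tceal6 was not (adjusted p = 0.203).

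Against epithelial wells, Procr was 4.31 ± 0.66 higher in fibroblasts on the log2 scale (SE, adjusted p = 4.2e-07, 5 of 5 mice). Tceal6 and Batf3 had no transcript in epithelial wells and were at least 6.42-fold and 3.11-fold higher (adjusted p = 0.0014 and 0.0108). With no transcript there, neither could be called lower in fibroblasts, and nothing is read from their calls. Procr, Tceal6 and Batf3 are 3 of 7 members tested, beside 16.0% of all genes, and nothing is read from this count either. Snhg11 was the only member lower in fibroblasts, by -1.76 ± 0.47 (SE, adjusted p = 0.0026, lower in 4 of 5 mice), where 11.0% of genes were lower. The Snhg11 call was not kept when wells with more than 1 Ptprc or Epcam transcript were removed (adjusted p = 0.799), nor under a stricter gate (adjusted p = 0.204). Without mouse 4, which had the most epithelial wells, 2 of 5 members tested were called, and 3 of 7 with the filter of all mice kept. Cd109, Cadm1 and Myh10 were not called, with log2 differences of 1.04, -0.80 and 0.97.

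Pericytes, the contractile cells around small vessels, resembled fibroblasts in Procr. Its pooled level was 172 CPM in 80 pericyte wells and 128 CPM in fibroblast wells, a log2 difference of -0.43 ± 0.50 (SE) that was not called (adjusted p = 0.773), and the 23 smooth muscle wells had 184 CPM, where 34 of 40 transcripts came from 1 well of mouse 5. Batf3 was higher in pericytes in all 4 mice compared, 22.6 against 9.34 CPM, without passing the test (adjusted p = 0.426). Of the 7 members, 4 were higher in fibroblasts, beside 6.28% of genes. Tceal6 and Cadm1 had no transcript in pericytes and were at least 6.24-fold and 5.12-fold higher (adjusted p = 0.0071 and 0.0029), Myh10 was higher by 2.30 ± 0.59 (adjusted p = 0.0039) and Snhg11 by 2.50 ± 0.81 (adjusted p = 0.0316). Each of the last 2 calls depended on single mice, since Myh10 was lost without mouse 2 (adjusted p = 0.218) and Snhg11 without mouse 1 or mouse 4 (adjusted p = 0.104 and 0.180). Tceal6 was not called without mouse 2 either. With 0 transcripts in pericytes, Tceal6 and Cadm1 could not have been called lower in fibroblasts, and nothing is read from their calls or from the count of 4 of 7. Trpa1 also had 0 transcripts in pericytes, at least 3.85-fold fewer than in fibroblasts, which was not tested.

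Cadm1 reached its highest level in glia. The 10 glial wells pooled to 1051 CPM, the 95 epithelial wells to 53.0 CPM and the 553 fibroblast wells to 15.8 CPM. FibCtrl mice 1, 3 and 4 had 2, 1 and 5 of the glial wells, with 12, 2 and 32 Cadm1 transcripts. FibΔZeb1 mice 2, 5 and 6 had 1, 1 and 0, with 10 transcripts in mouse 2 and 0 in mouse 5. Over all kept wells mouse 4 had 76 Cadm1 transcripts. The part of the unequal glial wells in the genotype difference of Cadm1 was not tested. Cd109 was also highest in glia, at 188 CPM from 10 transcripts, against 42.2 CPM in fibroblast and 39.1 CPM in pericyte wells. Fchsd2 was at 31.9 CPM in pericyte and 20.0 CPM in fibroblast wells. No mouse had more than 5 glial wells, so that glia were not tested.

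**Figure D3:**
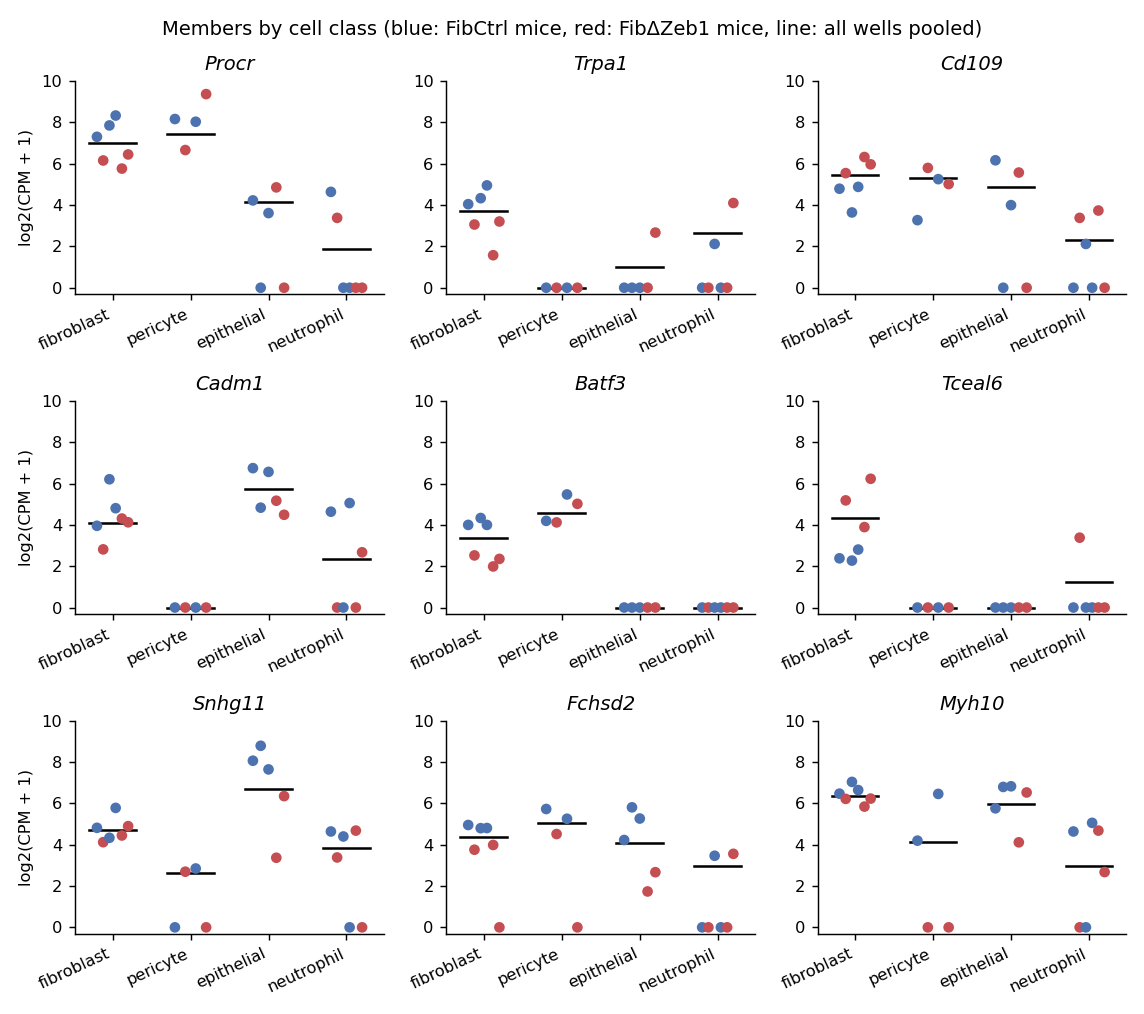
Level of each gene as log2(CPM + 1) in fibroblast, pericyte, epithelial and neutrophil wells, with 1 point per mouse that had at least 5 wells of the class (blue FibCtrl, red FibΔZeb1) and a line for all wells pooled. Tceal6, Trpa1 and Cadm1 are at 0 in pericytes, Procr, Batf3, Cd109 and Fchsd2 are shared with pericytes, and Snhg11 and Cadm1 reach their highest level among these classes in epithelial wells.

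Fibroblast wells were divided further by markers that include none of the 9 genes. The telocyte-like gate (Wnt5a, Bmp7, Nrg1 and others) held 198 wells, the iCAF-like gate (Pi16, Sfrp4, Ptx3 and others) 219, and 136 wells met neither. The telocyte-like share of fibroblast wells was 24.1%, 57.9% and 72.7% in FibCtrl mice 1, 3 and 4 and 49.4%, 11.5% and 53.3% in FibΔZeb1 mice 2, 5 and 6. The genotypes overlapped, and mice 1 and 5 were those with more iCAF-like than telocyte-like wells.

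Of the 9 members, 5 differed between the 2 gates in the 5 mice with at least 5 wells in both (edgeR quasi-likelihood test with the mouse as a block, over 9442 genes). Procr, Tceal6, Batf3 and Trpa1 were lower in iCAF-like wells, and Cd109 was higher. The share of all genes was 7.09% lower and 7.88% higher, beside 4 and 1 of the 9 members. The 4 include Trpa1 and Batf3, which could hardly have been called the other way, so that nothing is read from this count. Procr was 2.82-fold lower (SE 0.36 on the log2 scale, adjusted p = 0.0040) and Tceal6 fell by 2.81 ± 0.65 on that scale (SE, adjusted p = 0.0028), both lower in 5 of 5 mice. For Tceal6, mice 3 and 4 had 1 and 2 telocyte-like transcripts (5.85 and 3.99 CPM) and 0 in their 5 and 7 iCAF-like wells. There 3 counts equal 43.1 and 28.4 CPM, so that these mice do not show a direction for Tceal6. Trpa1 was nearly restricted to the telocyte-like gate, with 78 of its 79 fibroblast transcripts there and 1 in iCAF-like wells, a ratio of 66.9 with a 95% interval of 11.7 to 2674 (adjusted p = 0.00026). Of the 78, 27 came from 1 well of mouse 1, which the interval does not take into account. Batf3 had 55 transcripts in telocyte-like and 3 in iCAF-like wells, a ratio of 15.7 with an interval of 5.10 to 78.5 (adjusted p = 0.0098, lower in 4 of 5 mice). With 1 and 3 transcripts in iCAF-like wells, Trpa1 and Batf3 could hardly have been called higher there, and nothing is read from their calls. In telocyte-like wells Trpa1 was at 29.3 CPM in mouse 3, and Batf3 at 29.3 and 19.9 CPM in mice 3 and 4. These levels lie below what 3 counts equal in the iCAF-like wells of the same mice, so that they show no direction. Mouse 5 had 1 Trpa1 transcript in each gate. Cd109 was 1.02 ± 0.33 higher in iCAF-like wells (SE, adjusted p = 0.0382, 4 of 5 mice). DESeq2 called 3 of the 5 and not Batf3 or Cd109 (adjusted p = 0.0886 and 0.116). Without the mouse as a block edgeR called 2 of 7 members tested, Procr and Tceal6, as 6705 genes passed the filter and Batf3 and Trpa1 were not among them. With the filter of the blocked fit it called 4 of 9, and Cd109 was lost (adjusted p = 0.232).

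The other 4 members were not called. Cadm1 was 1.84 ± 0.68 higher in iCAF-like wells (SE, adjusted p = 0.0725, 4 of 5 mice), Myh10 was -0.61 ± 0.25 (adjusted p = 0.107, lower in 5 of 5 mice), Snhg11 -0.40 ± 0.51 (adjusted p = 0.733) and Fchsd2 -0.02 ± 0.44 (adjusted p = 0.993). Without mouse 1 and without mouse 2, only 6325 and 6329 genes passed the filter on low counts, and Batf3, Trpa1 and Fchsd2 were not tested. Without mouse 2, the source of most Tceal6 transcripts, Procr alone was then called and Tceal6 had an adjusted p of 0.0953, and without mouse 1 Procr and Tceal6 were called. With the filter of all mice kept, Procr, Tceal6 and Trpa1 were called whichever mouse was left out, and Batf3 was lost without mouse 1 (adjusted p = 0.406). Cd109 was lost without mouse 1 or mouse 2 under both filters (adjusted p = 0.288 to 0.422). Zeb1 itself was 1.15 ± 0.23 higher in iCAF-like wells (SE, adjusted p = 0.00062).

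**Figure D4:**
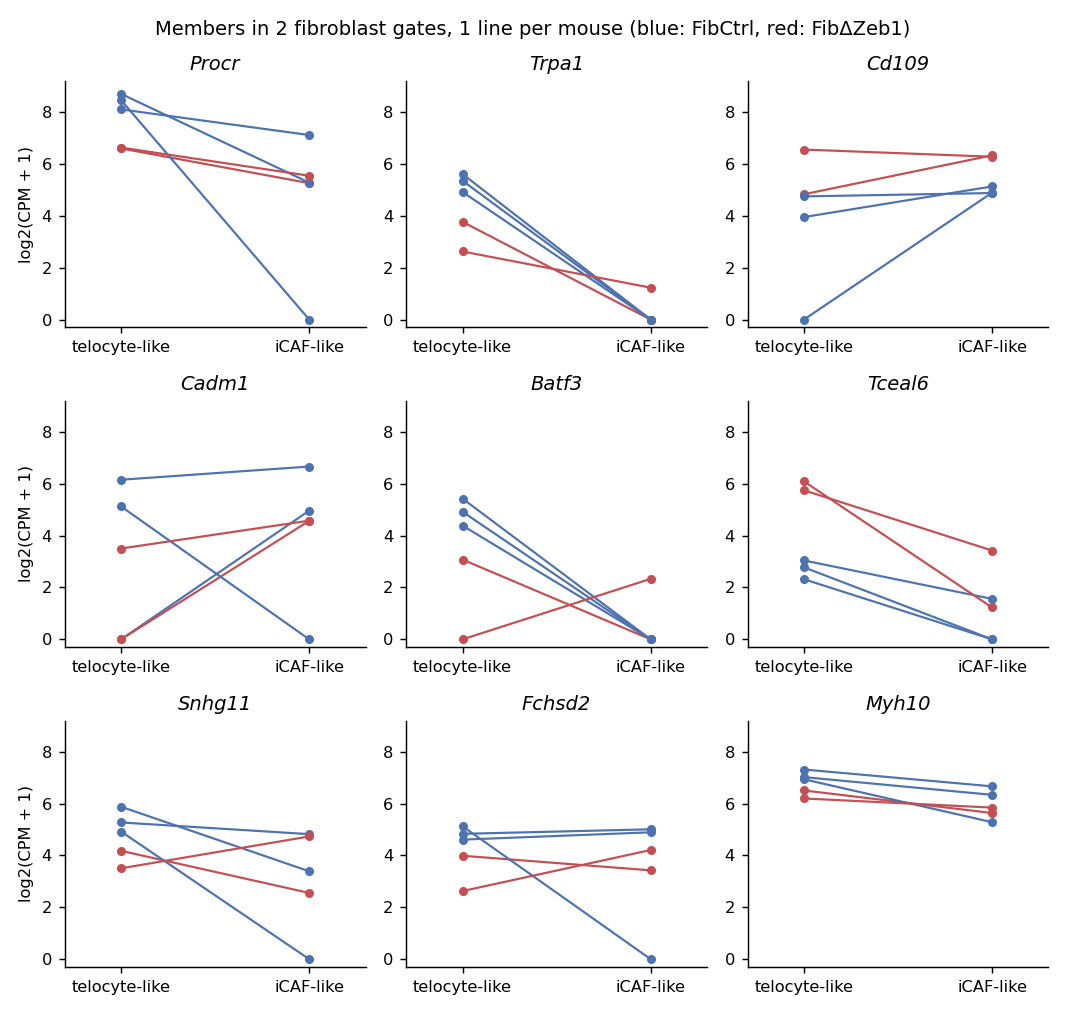
Level of each gene as log2(CPM + 1) in telocyte-like and iCAF-like fibroblast wells, with 1 line for each of the 5 mice that had at least 5 wells in both gates (blue FibCtrl, red FibΔZeb1). Lines fall from telocyte-like to iCAF-like wells in all 5 mice for Procr, Tceal6, Trpa1 and Myh10 and mostly rise for Cd109.

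The genotype difference was then described within each gate. In telocyte-like wells Procr was at 275, 352 and 416 CPM in FibCtrl and at 96.0, 98.3 and 124 CPM in FibΔZeb1 mice, and Tceal6 at 7.24, 5.85 and 3.99 CPM and at 52.8, 67.2 and 125 CPM. Both were wholly separate, with FibΔZeb1 lower for Procr and higher for Tceal6. Trpa1 was at 47.9, 29.3 and 39.9 against 12.6, 5.17 and 13.8 CPM, Batf3 at 42.0, 29.3 and 19.9 against 7.43, 0 and 6.91 CPM, and Fchsd2 at 27.5, 23.4 and 33.9 against 14.9, 5.17 and 0 CPM. With Cd109 (14.5, 0 and 25.9 against 27.5, 93.1 and 76.1 CPM) and Myh10 (129, 158 and 122 against 89.9, 72.4 and 89.9 CPM), 7 of 9 members did not overlap in this gate, where 9.56% of 11080 genes did not. Mice 3, 5 and 6 had 11, 14 and 8 telocyte-like wells. In mice 5 and 6, Trpa1 rested there on 1 and 2, Batf3 on 0 and 1 and Fchsd2 on 1 and 0 transcripts. At their depth 3 counts equal 15.5 and 20.7 CPM, while the lowest FibCtrl value of Batf3 was 19.9 CPM. These wells belong to the libraries on which the genes were chosen, and nothing is read from the count of 7 of 9.

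In iCAF-like wells the picture was different. Procr was at 138, 0 and 37.9 CPM in FibCtrl mice 1, 3 and 4 and at 37.4, 45.7 and 58.5 CPM in FibΔZeb1 mice, and all values but that of mouse 1 lay within or below the FibΔZeb1 range. Cd109 was at 34.1, 28.7 and 28.4 CPM in FibCtrl and at 79.6, 76.7 and 0 CPM in FibΔZeb1 mice. None of the 6 members with at least 10 transcripts in this gate was free of overlap, where 7.63% of 10442 genes were, but mice 3, 4 and 6 had only 5, 7 and 3 iCAF-like wells. Whether the genotype difference itself differed between the gates was not tested. In the wells that met neither gate, Cd109 and Fchsd2 were without overlap, 2 of the 5 members with at least 10 transcripts there, beside 8.16% of all genes, and Trpa1 had no transcript. Nothing is read from this count either. The genes leading these wells were Beta-s, S100a9, Hdc, Car3, Acta1, Il1b, Tnnc2, S100a8, Irg1 and Mylpf, which include genes of blood cells and of muscle.

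Fibroblast wells with 10 to 30% mitochondrial transcripts, which were not kept, gave a further set of 286 wells from the same 6 mice. Procr was at 121, 70.2 and 479 CPM in FibCtrl and at 37.0, 20.5 and 177 CPM in FibΔZeb1 mice, and mouse 6 lay above mice 1 and 3. Tceal6 overlapped as well, with 10.4, 43.9 and 19.6 CPM in FibCtrl and 87.6, 12.3 and 0 CPM in FibΔZeb1 mice. Snhg11 alone did not, with 51.9, 35.1 and 41.7 against 26.9, 16.4 and 9.0 CPM. That is 1 of 9 members, where 8.10% of 10599 genes did not overlap, and nothing is read from this count. The wells were also shallower, with a median of 4603 transcripts against 11627 in the kept fibroblast wells. Cd109 had log2 ratios of 1.49 in the kept and 0.09 in these wells, and Tceal6 3.14 and 0.44, while Procr had -1.75 and -1.51.

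**Figure D5:**
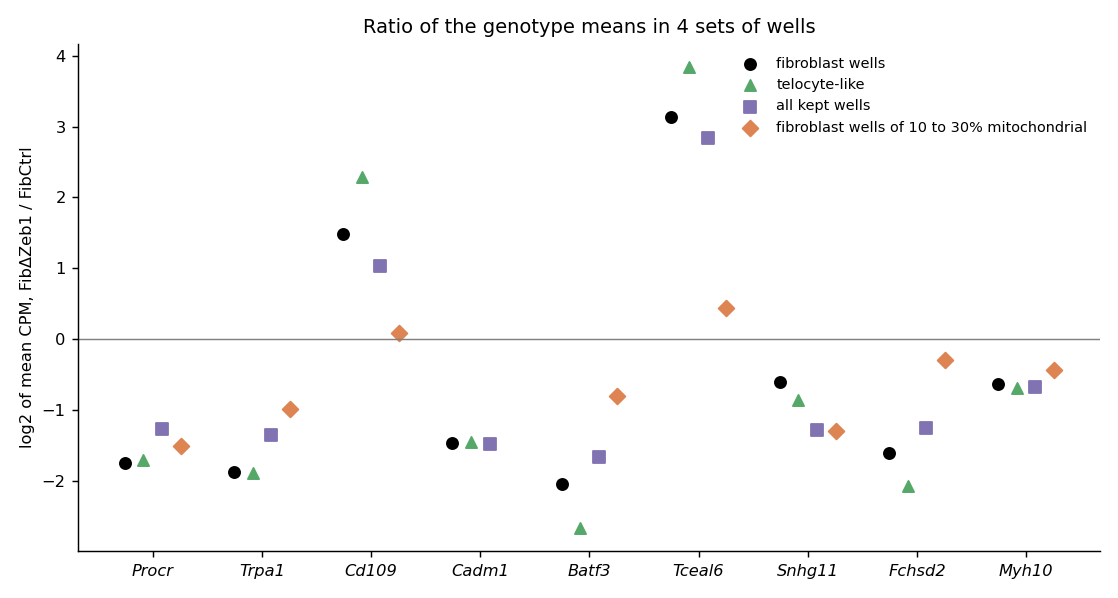
Log2 of the ratio of genotype mean CPM (FibΔZeb1 over FibCtrl) for each gene in kept fibroblast wells, telocyte-like wells, all kept wells and fibroblast wells of 10 to 30% mitochondrial transcripts, with a line at 0. Procr lies between -1.75 and -1.27 in the 4 sets and Tceal6 between 0.44 and 3.84, and Cadm1 has no value in the last set because FibΔZeb1 mice were at 0.

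Markers of other cells in the fibroblast wells were measured beside these values. The 6 smooth muscle markers summed to 165 to 960 CPM in FibCtrl and 28.8 to 150 CPM in FibΔZeb1 mice, and 2 of the 6 were lower in FibΔZeb1 without overlap. Pericyte markers summed to 134 to 190 against 107 to 179 CPM, with 2 of 10 separate and lower in FibΔZeb1, and epithelial markers to 39.3 to 139 against 9.91 to 432 CPM, with none separate. Among all genes with at least 10 transcripts in fibroblast wells, 3.54% were lower without overlap. Neutrophil markers summed to 121 to 605 against 213 to 306 CPM. Of the telocyte-like markers the sum was 950 to 3901 CPM in FibCtrl and 666 to 2696 CPM in FibΔZeb1, and of the iCAF-like markers 603 to 2445 and 924 to 3415 CPM. No marker of these lists was at 0 in all mice, and the part of these cells and states in the differences of the members was not tested.

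Procr and Myh10 occurred together in 100 of the 553 fibroblast wells, Procr and Trpa1 in 29, which are most of the 37 wells with Trpa1, and Procr and Batf3 in 24 of the 34 with Batf3. Tceal6 and Cadm1 shared 2 wells, as did Batf3 and Cadm1. A fibroblast well held a median of 1 or 2 of the 9 genes in each mouse and at most 6. Deep wells hold more of any gene, and this was not corrected for.

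Over 26 sums of at least 5 wells per mouse and class, the genes most like each member by Pearson correlation of log2(CPM + 1) among 13917 genes are given as a description, and the points share mice and depth. Procr was closest to Klhl29 (r = 0.857) and Cdk14 (0.843), Trpa1 to Col6a5 (0.941) and Prtn3 (0.868), and Tceal6 to Rspo1 (0.920), a Wnt agonist, and Tspan11 (0.870). Cd109 went with Apmap (0.878) and Evc (0.876), Batf3 with Pear1 (0.851) and Mphosph9 (0.828), and Cadm1 with Slc22a23 (0.858) and 4930506M07Rik (0.829). The closest genes were less close for Fchsd2 (Hsf2 at 0.814 and Mapk8 at 0.796), Myh10 (Erlec1 at 0.786 and Klhl42 at 0.780) and Snhg11 (Stxbp6 at 0.779 and Akr1c12 at 0.757). Tceal6 and Trpa1 were above 0 in only 7 and 9 of the 26 sums.

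Genes related to the members were examined in the genotype fit of fibroblast wells. Of 112 such genes in 9 lists, 104 were listed and 72 passed the filter on low counts. Neither edgeR nor DESeq2 called any of them, and 2 had an unadjusted p under 0.05 in edgeR. These were Mylk, the kinase of myosin light chains, at 133, 707 and 328 CPM in FibCtrl and 116, 53.4 and 69.9 CPM in FibΔZeb1 mice, and Myl9, a light chain of smooth muscle, at 107, 438 and 327 against 116, 42.5 and 53.4 CPM. Their log2 differences were -2.18 ± 0.56 and -1.90 ± 0.53 (SE, adjusted p = 0.9996 for both). Mice 3 and 4 were high for both, Myl9 overlapped between mice 1 and 2, and mouse 3 also had the highest sum of smooth muscle markers.

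Around Procr, 12 of 18 genes of the protein C system and coagulation passed the filter, with 8 below and 4 above 0 and a median log2 difference of -0.14. Thbd, thrombomodulin, which forms the activating complex for protein C, was at 662, 567 and 864 CPM in FibCtrl and at 455, 234 and 707 CPM in FibΔZeb1 mice. F2r, the thrombin receptor that activated protein C can cleave, was at 297, 506 and 486 against 436, 237 and 218 CPM. Both overlapped between the genotypes. Of the TCEAL and BEX family around Tceal6, 4 of 10 passed, with a median of 0.03, and Tceal8, at 126, 111 and 127 against 126, 109 and 98.7 CPM, showed no separation. Ngfrap1, the older name of Bex3, was the only one with all FibΔZeb1 mice above all FibCtrl mice, at 45.4, 45.9 and 44.9 against 52.2, 51.4 and 57.5 CPM. That is 1 of the 4 that passed, beside 3.04% of all genes higher without overlap.

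Among AP-1 and partner factors of Batf3, 8 of 12 passed, 7 of them above 0 with a median of 0.32. Fos was at 2860, 3953 and 2221 CPM in FibCtrl and at 4019, 4923 and 2402 CPM in FibΔZeb1 mice, and Irf8 at 60.4, 115 and 98.8 against 83.7, 28.7 and 65.7 CPM, neither separate. Thioester proteins and TGF-beta receptors, the list of Cd109, had a median of 0.06 over 9 of 11 genes, with Tgfbr2 at 594, 617 and 862 against 624, 596 and 556 CPM. For TRP channels 2 of 11 passed, and Trpm7 and Pkd2 differed by 0.18 ± 0.23 and -0.07 ± 0.25 (SE). Nectin-like adhesion genes had a median of -0.05 over 5 of 11, in which Pvrl3, an older name of Nectin3, differed most with -0.66 ± 0.29 (SE, adjusted p = 0.9996).

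Other snoRNA host genes had a median of -0.07 over 8 of 10, and 2 of them were lower in FibΔZeb1 without overlap, Snhg3 at 42.1, 42.1 and 38.9 against 34.9, 37.6 and 32.9 CPM and Snhg5 at 37.4, 53.6 and 32.9 against 31.0, 22.7 and 28.8 CPM, beside the 3.54% of all genes given above. F-BAR genes had a median of 0.22 over 11 of 15, with Fchsd2's relative Fnbp1 at -0.59 ± 0.36 and Fcho2 at 0.58 ± 0.42 (SE). Genes of nonmuscle myosin had a median of -0.00 over 13 of 14. The most abundant, Myl6 and Myl12a, light chains that nonmuscle myosin uses, differed by -0.13 ± 0.21 and -0.00 ± 0.21 (SE), while Mylk and Myl9 were the ones given above.

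Positions of the genes are those of the RefSeq annotation of GRCm38.p6. Procr is at chr2:155751125-155755478 and Snhg11 at chr2:158375713-158386474, Batf3 at chr1:191098414-191108943 and Trpa1 at chr1:14872644-14918862 (minus strand), Cd109 at chr9:78615546-78716260 and Cadm1 at chr9:47530170-47862280, Tceal6 at chrX:135208686-135210687 (minus strand), Fchsd2 at chr7:101108499-101284405 and Myh10 at chr11:68691915-68816626. Fchsd2 shares 25 exon bases with Atg16l2 on the opposite strand.

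Because Zeb1 binds E-boxes, the 250 bases before the start in RefSeq's promoter table, which for Procr and Fchsd2 lies inside the gene as placed above, were searched on both strands for CACCTG and CAGGTG, which are each other's reverse complement. RefSeq promoters were matched for 6 members, namely Procr, Tceal6, Batf3, Snhg11, Fchsd2 and Myh10. A match was found in 1 of the 6, Myh10, beginning 247 bases before its start, while 17.2% of 32851 promoters had one. The stretches before the first annotated start of Procr, the most abundant member, and Tceal6, the member with the largest ratio, are shown without capitals because neither holds a match. They are 150 bases at chr2:155750967-155751116 (plus strand) and 250 bases at chrX:135210688-135210937 (minus strand) of GRCm38.p6.
Procr: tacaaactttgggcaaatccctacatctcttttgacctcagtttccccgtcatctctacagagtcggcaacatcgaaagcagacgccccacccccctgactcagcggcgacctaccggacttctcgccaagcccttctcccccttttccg
Tceal6: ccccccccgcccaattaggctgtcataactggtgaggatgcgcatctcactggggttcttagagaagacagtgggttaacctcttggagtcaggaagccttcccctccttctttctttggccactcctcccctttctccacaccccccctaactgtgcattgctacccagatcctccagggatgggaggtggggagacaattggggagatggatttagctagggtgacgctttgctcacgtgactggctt
A match or its absence says only whether these letters stand in the window.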

How the data were processed

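Reads had been assigned by the authors to wells and molecular barcodes, aligned with BWA to the GRCm38 transcriptome and counted with the program of the sequencing provider. The submitters' processing notes also list Cell Ranger 2.1.1. Per gene and well the authors deposited counts of distinct molecular barcodes as well as transcript counts, which are estimated counts after their correction for barcodes shared by several molecules. Neither is normalized. How chance sharing of barcodes and 3′ reads between similar genes affects a level is not separable from these tables. Spike-in RNA (7.85% to 18.6% of a plate) was left out.

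Wells were classed by the highest mean score over marker genes, each capped at its average level where detected, with at least 3 markers detected. Doublets were not called, since each well was sorted with 1 cell. A class needed 5 wells to enter a sum. Other immune wells (14) and those without a class (20) were left unnamed. The members and lists were chosen with earlier results of these data known, so that no pattern in them is independent support. Named besides the 9 members were Zeb1, sex-linked genes, the 2 genes closest to each member, and up to 4 of each related list (the 2 most abundant and the 2 of largest difference).

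Rounded sums were tested with the quasi-likelihood method of edgeR 4.0.16 after filterByExpr and TMM scaling, at a Benjamini-Hochberg adjusted p under 0.05, and, as an alternative, DESeq2 1.42.0, in R 4.3.3. Standard errors are the absolute log2 fold over the square root of F. The fits were tested on simulated counts. Intervals of ratios are exact 95% binomial ones, levels at 0 were set to 3 counts for bounds, and both cover counting error only. Sequences come from RefSeq (GRCm38.p6) and annotated transcripts, compared with blastn 2.17.0.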

Additional observations from a re-analysis of the deposited data

How the results depend on the processing

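Against the 7 members without overlap in fibroblast wells, 3 members did not overlap as a mean over wells, 4 without the highest well of each mouse, 1 (Snhg11, not among the 7) in the wells of 10 to 30% mitochondrial transcripts and 2 in the wells of neither gate (the last 3 were added after seeing the data), and other settings gave 5 to 8. The sign of the log2 ratio turned for Myh10 in thinned wells (0.81) and in wells of neither gate for Procr (0.054), Tceal6 (-1.43) and Myh10 (1.25). Of the members called against neutrophils (5), epithelium (4), pericytes (4) and between the gates (5), DESeq2 called 3, 2, 2 and 3, and leaving out single mice gave 2 to 6, 2 to 4, 2 to 4 and 1 to 6. Leaving out a mouse or the block also changed which genes passed the filter on low counts, so both were repeated with the filter of the full fit (added after seeing the data). Without the mouse as a block 2 were called against pericytes under either filter, and between the gates 2, or 4 with the filter kept, so that part of that loss came from the filter. The block changed the other 2 counts by less than 1.5 times. Against epithelium 1 was called without Ptprc or Epcam wells and 2 under the stricter gate (a score at least 2 times that of the next class), which also gave 2 against pericytes. Fchsd2 between the gates, never called, turned to 0.20 under 30% mitochondrial transcripts, 0.12 without the block (0.14 with the filter kept), 0.081 under the stricter gate and 0.29 without mouse 4 (-0.23 to 0.29 when leaving out 1 mouse), and with the filter kept to 0.14 without mouse 2 and 0.30 without mouse 4 (-0.31 to 0.30). The cause of these changes was not tested. Between the genotypes DESeq2 called 1 gene in fibroblast wells and 1 in all wells, where edgeR called 0, and leaving out each mouse gave 0. DESeq2's size factors moved the median of all genes against epithelium from 0.00 to -0.15 and turned no member. No paired analysis was possible because the plate numbers are not shared between genotypes. The 15 to 19 fibroblast wells of mice 3 and 6 limit all low values there, where 3 counts equal 11.5 and 12.3 CPM.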
